A study of Oryza sativa with 4 samples.

Results

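The response of dark-grown rice leaves to nitrate was read from the 2 etiolated-leaf arrays, out of 4 arrays in the series. The other 2 held leaves grown under a 12 h photoperiod and are used here only for comparison. Each array was 2-colour, with RNA of nitrate-treated leaves in one dye and of water-treated leaves in the other, and the dyes were swapped between the replicates. The seedlings were of indica rice, variety Panvel, raised on water alone, in total darkness for the etiolated group. Leaves were then excised and floated on nitrate or on water. By the methods, leaves of the dark experiments were also treated in the dark. Dark growth and darkness during treatment thus cannot be told apart in the comparison with light-grown leaves. The labels give 120 mM nitrate for 2 h, an age of 8 to 10 days and growth at 25 °C, whereas the methods give a shorter treatment and a warmer temperature. Nitrate was supplied as its potassium salt and the control was distilled water, so effects of nitrate, of potassium and of osmotic strength cannot be told apart. All results come from cut leaves, without roots, after 1 treatment time. The labels call the 2 arrays biological and flip-dye replicates at once, so that biological and dye differences between them cannot be told apart. Bulk leaf RNA was used, in which fewer cells of a type and less RNA per cell cannot be told apart.

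Each channel's dye is given in the labels, without saying which held the nitrate sample. Channel 2 was read as nitrate. The methods define the deposited ratio as signal channel over control channel, and its log2 correlated with the scanner ratio of channel 2 over channel 1 at r = 0.99 and 0.98 across probes on etiolated arrays 1 and 2, in both dye orientations. The direction is therefore likely, but is not independent of the study. Values below are log2(nitrate/water), in which 1 stands for a doubling, or the normalized signal of a channel. The spread is limma's moderated SE for n = 2 arrays per condition. Its variance was estimated from all 4 arrays together, so it is not the spread of the etiolated arrays alone. Differentially expressed genes (DEGs) had a log2 ratio of at least 1 or at most -1 with a limma p, not adjusted, no higher than 0.05. Gene names are those of the array design, which describes each probe by its nearest known mRNA, often of another plant. The species is therefore named, and a description does not prove the identity of the rice gene.

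Plants reduce nitrate to nitrite in the cytosol by nitrate reductase, and nitrite to ammonium in plastids by nitrite reductase, a siroheme enzyme fed with electrons by ferredoxin. In green leaves in light, photosynthesis reduces the ferredoxin. In roots and in non-green plastids, ferredoxin-NADP+ reductase does so with NADPH from the oxidative pentose phosphate pathway, which glucose-6-phosphate dehydrogenase opens. Nitrate itself is a signal that induces these genes, and leaves grown in darkness contain etioplasts in place of chloroplasts.

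Of 21494 probes with a ratio on both etiolated arrays, 389 increased (1.81% of probes) and 370 decreased (1.72%). At an adjusted p of at most 0.05 (Benjamini-Hochberg over all probes), 48 probes remained (0.223%), of which 29 were higher and 19 lower with nitrate. This adjusted count depended on the processing, from 0 with the etiolated condition fitted alone to 634 without dim probes. All 759 DEGs had the same direction on both arrays and 472 passed a log2 ratio of 1 on each. Large changes were few, with 61 increases of at least 2 on the log2 scale and 38 decreases of that size. The median absolute difference between the arrays was 0.30 over all probes and 0.43 over DEGs, against 0.07 and 0.08 between the 2 spots of a probe on 1 array. The ratios were wider on array 1, with an SD over probes of 0.59 against 0.49, and 470 of the DEGs had the larger change there. Of the increased DEGs, 76 were well above background with nitrate on both arrays and on neither with water, and 30 decreased DEGs showed the opposite pattern. For such probes the change is given as a lower limit. That limit can fall below no change, and the probe still counts as a DEG. A gene product was named for 354 DEGs (46.6%), against 39.9% of all probes, and 200 DEGs were described only as unknown expressed proteins.

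**Figure D1:**
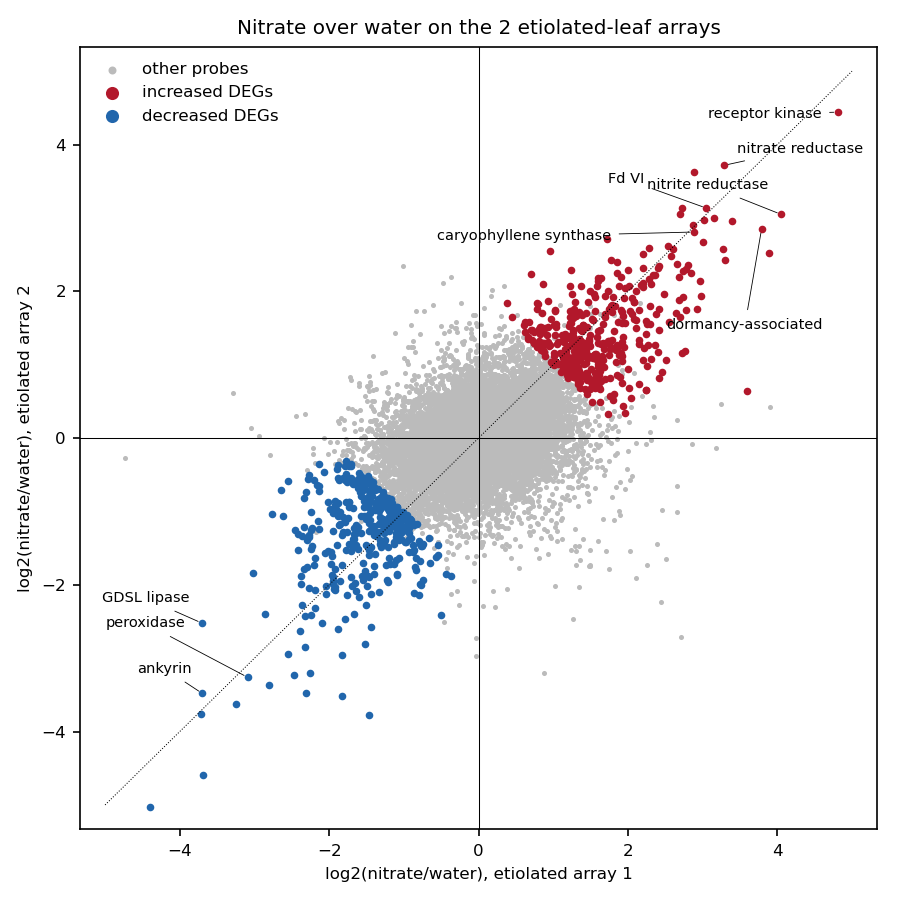
Log2(nitrate/water) of each probe on etiolated array 1 (horizontal) against array 2 (vertical), with increased DEGs in red, decreased DEGs in blue and other probes in grey. The dotted line marks equal ratios. All 759 DEGs lie in the quadrants where both arrays share a direction, which their selection favours.

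The water-treated channel carried the marks of etiolated tissue only in part. The 5 probes for the small chain of ribulose bisphosphate carboxylase had like medians in both tissues. These were 12965 and 11303 in etiolated and 13170 and 10123 in light-grown leaves, the values of 1 apple-matched probe (A_71_P106501). The rice probes differed. A_71_P126906 was at 41.9 and 15.7 in etiolated against 5524 and 3688 in light-grown leaves. A_71_P126908 (259 and 171 against 7253 and 2274) and A_71_P126909 (27139 and 23983 against 68305 and 70224) were also lower. A_71_P125715 was higher, at 55089 and 71755 against 38445 and 33800. The median water signal of 36 probes for photosystem and chlorophyll a/b-binding proteins was 5898 and 2622 on the etiolated arrays, against 31431 and 20552 on the light arrays. The brighter of 2 phytochrome probes, matched to oat phytochrome, gave 11573 and 13562 in etiolated leaves and 4128 and 3448 in light-grown leaves. The dimmer one went the other way, at 11.1 and 16.1 against 62.9 and 87.2. The 2 probes for protochlorophyllide oxidoreductase, whose isoform is not named, ranged from 19589 to 41886 in etiolated leaves and from 36399 to 88232 in light. Of 9 probes described as the root-specific genes RCc2 and RCc3, 5 were well above background on each etiolated array and the brightest reached 35915 and 36724, so that signal under this name was present in these leaf samples. The arrays share 1 slide and 1 scan.

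Several genes of nitrate reduction and of its electron supply rose in the dark. Of 6 probes for nitrate or nitrite reductase, 3 increased, none decreased, and the median log2 ratio was 1.32 against -0.01 over all probes. The strongest nitrate reductase probe (A_71_P104314, barley) gave signals of 4382 and 6460 with nitrate and 448 and 491 with water. The groups did not overlap, and the log2 ratio was 3.50 ± 0.17 (11.3-fold, adjusted p = 0.0476). A second barley nitrate reductase probe (A_71_P120871) gave 19920 and 16486 with nitrate against 10822 and 9495 with water. Its log2 ratio of 0.84 ± 0.13 was below the DEG threshold. The maize NAR1S probe (A_71_P120867) rose by 2.36 and 1.26 on the arrays, but its water signal was not above background, so that the rise was at least 1.67-fold. The log2 ratios of probes under the name nitrate reductase thus differed widely, and the Brassica one (A_71_P128019), at 0.24 and 0.01, was above background on 1 array only.

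Nitrite reductase showed the same split between probes. With nitrate, the responsive rice probe (A_71_P102212) reached 237 and 227, whereas with water it stood at 14.3 and 27.4, not well above background. The rise was at least 5.75-fold (log2 ratio 3.55 ± 0.27, adjusted p = 0.0553). With normexp background correction, which adds an offset to both channels, the log2 ratio of A_71_P102212 was 0.92 and below the threshold, and 1 of the 6 reductase probes increased rather than 3. The other rice nitrite reductase probe (A_71_P122972) was bright and level, at 9026 and 10618 with nitrate and 9024 and 8825 with water. Uroporphyrinogen III methyltransferase (A_71_P103189, maize), the branch-point enzyme that leads to siroheme, went from 5182 and 6482 with water to 54692 and 50504 with nitrate (log2 ratio 3.18 ± 0.20, 9.07-fold, adjusted p = 0.0476). It was the only increased DEG among 19 probes for siroheme, heme and chlorophyll synthesis, in which the barley protochlorophyllide oxidoreductase probe (A_71_P111021) fell by 1.01.

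Of the electron carriers, 2 ferredoxin probes and ferredoxin-NADP+ reductase rose. Maize ferredoxin VI (A_71_P103413) gave log2 ratios of 3.05 and 3.13 on the arrays, from water signals of 4270 and 4294 (8.53-fold, adjusted p = 0.0476). The rice root ferredoxin (A_71_P115345) rose by 1.59 and 2.07. Rice ferredoxin-NADP+ reductase (A_71_P107781) had a log2 ratio of 3.08 ± 0.18 (8.43-fold, adjusted p = 0.0476). With nitrite reductase, these were the 4 increased DEGs among 15 probes naming ferredoxin, whose median was 0.05. Of 25 probes for the pentose phosphate pathway, 1 rose and 1 fell, and both were glucose-6-phosphate dehydrogenases. The chloroplast form (A_71_P119392, tobacco) went from 3613 and 3465 to 16656 and 19655 (log2 ratio 2.35 ± 0.15, 5.11-fold, adjusted p = 0.0476). The other form (A_71_P106466, rice), which is not described as plastid, fell from 463 and 359 to 205 and 156 (log2 ratio -1.19 ± 0.21, adjusted p = 0.135).

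**Figure D2:**
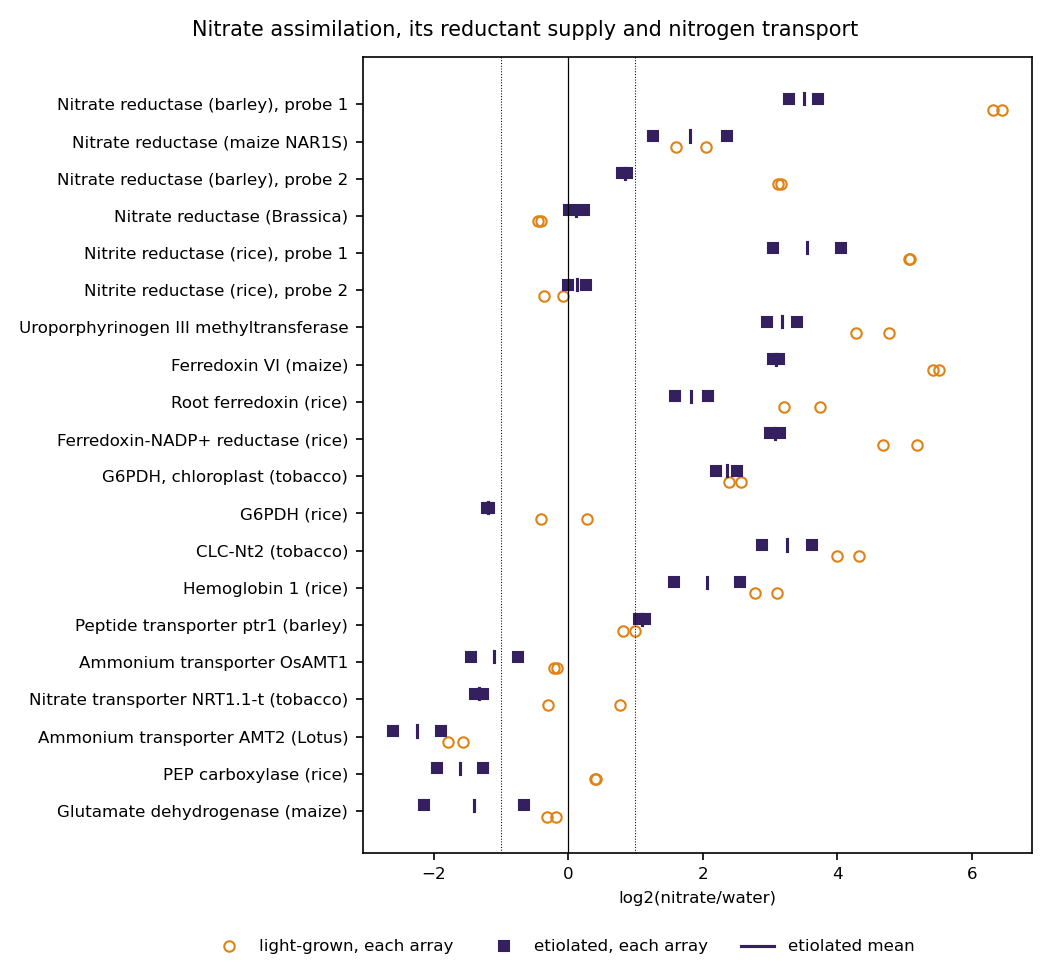
Log2(nitrate/water) of 20 probes for nitrate assimilation, its electron supply and nitrogen transport, with etiolated arrays as filled squares, their mean as a bar and light-grown arrays as open circles. Dotted lines mark log2 ratios of -1 and 1, and the barley nitrate reductase probe 1 stands at 3.29 and 3.72 in etiolated leaves.

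Few probes for the steps after nitrite were called. Among 25 probes for ammonium assimilation, 0 increased and 1 decreased, with a median of -0.04. The decreased one was glutamate dehydrogenase (A_71_P119124, maize), at -2.14 and -0.66. Phosphoenolpyruvate carboxylase of rice (A_71_P119875), which supplies carbon for amino acids, was the only DEG among 105 probes for glycolysis and organic acids, at -1.94 and -1.27. The 20 Calvin cycle probes held 0 DEGs, and 1 of 39 photosystem and light-harvesting probes decreased, a light-harvesting protein of photosystem II (A_71_P122292) at -2.28 and -1.34. All of these decreases missed the adjusted threshold.

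Transporters moved in both directions. CLC-Nt2 of tobacco (A_71_P126125), of a family whose Arabidopsis member CLCa stores nitrate in vacuoles, rose from 186 and 124 to 1374 and 1541 (log2 ratio 3.26 ± 0.23, 9.55-fold, adjusted p = 0.0485). A putative rice sugar transporter (A_71_P108929) rose by 2.87 and 2.91 (7.41-fold, adjusted p = 0.0476). Of 47 probes for nitrate, peptide and ammonium transport, 1 rose (2.13%) and 5 fell (10.6%), against 1.81% and 1.72% of all probes. The median was -0.17. The Lotus AMT2 ammonium transporter probe (A_71_P105105) fell from 354 and 349 to 95.9 and 57.5 (log2 ratio -2.24 ± 0.22, adjusted p = 0.074). A tobacco NRT1.1-type nitrate transporter probe (A_71_P119839) gave -1.39 and -1.27. The rice ammonium transporter OsAMT1 (A_71_P111271) gave -0.75 and -1.45, while the barley peptide transporter ptr1 (A_71_P119561) was the increased one, at 1.15 and 1.05. Without etiolated array 2, 3 probes of this group decreased rather than 5.

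The called probes for potassium, sodium and phosphate all fell, while those of a wider transport group moved both ways. The rice potassium transporter HAK1 (A_71_P111291), a high-affinity carrier, fell by 2.22 and 1.48 (log2 ratio -1.85 ± 0.23, adjusted p = 0.0884). The rice sodium transporter HKT1 (A_71_P116403) fell as well (log2 ratio -1.48 ± 0.23, adjusted p = 0.118). These were the 2 DEGs of 29 probes for potassium and sodium transport, a list drawn up after the values were seen. Of 44 probes for phosphate transport and starvation genes, 0 rose and 4 fell (9.09%, against 1.72% of all probes), with a median of -0.02. The falls include a mitochondrial phosphate carrier that was not above background on both arrays. The purple acid phosphatase probe (A_71_P125867, sweet potato), a secreted enzyme type that frees phosphate, went from 13906 and 12185 to 2677 and 3062 (log2 ratio -2.18 ± 0.16, adjusted p = 0.0485). Both probes for the rice phosphate transporter Pht1-2 were also lower, at -1.39 ± 0.29 and -1.19 ± 0.14. Of 153 probes for sugar, organic acid and ion transport, which include HAK1, 5 rose and 5 fell. This was 3.27% each way, against 1.81% and 1.72% of all probes. Some of the rises had a lower limit below no change (0.79, 0.87 and 0.91-fold), and for these no rise is shown. The monosaccharide transporter OsMST3 (A_71_P118788) and a tomato sulfate transporter probe (A_71_P120596) fell by 1.88 and 1.64. None of the 16 aquaporin probes was a DEG.

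Large increases were also found outside nitrogen metabolism. A probe described as a light-repressible receptor kinase of Arabidopsis (A_71_P114063) went from 12.1 and 17.6 with water, not well above background, to 341 and 381 with nitrate, a rise of at least 8.94-fold (log2 ratio 4.63 ± 0.25, adjusted p = 0.0476). The 4 other probes of that description ranged from -0.28 to 0.45 and were no DEGs. A putative dormancy-associated protein of rice (A_71_P125014) rose at least 2.67-fold (log2 ratios 3.79 and 2.85). The Em protein (A_71_P115129, wheat), a late embryogenesis protein, went from 49.7 and 51.8 to 481 and 309 (log2 ratio 2.93 ± 0.21, adjusted p = 0.0485). The early drought-induced protein R1G1B of rice (A_71_P115362) rose at least 1.31-fold (log2 ratios 2.58 and 2.48). A list of 27 probes for late embryogenesis, dehydrin, dormancy and drought-induced proteins was chosen after the values were seen. Of these, 5 increased (18.5%, against 1.81% of all probes), 0 decreased, and the median was 0.14.

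Terpene synthases formed another such set, again listed after the values were seen. Of 26 probes, 5 increased (19.2%, against 1.81% of all probes), 0 decreased, and the median was 0.00. Beta-caryophyllene synthase (A_71_P109795, Artemisia), which makes a volatile sesquiterpene, rose from 48.7 and 44.3 to 360 and 310 (log2 ratio 2.85 ± 0.14, adjusted p = 0.0476). The copalyl diphosphate synthase probe (A_71_P106185, Scoparia), of an enzyme at the head of gibberellin and diterpene phytoalexin synthesis, gave 2.34 and 2.22 (adjusted p = 0.0476). Beta-amyrin synthase (A_71_P122361, oat), of triterpene synthesis, gave 2.15 and 1.28. The rice diterpene cyclase OsDTC1 (A_71_P107013) gave 1.77 and 1.24. Of 105 cytochrome P450 probes, 7 rose (6.67%) and 2 fell (1.90%, against 1.72% of all probes), with a median of 0.04. Both probes matched to the wheat N-1 P450 (A_71_P106186 and A_71_P106621) rose, the first at least 3.53-fold and the second with a log2 ratio of 2.28 ± 0.43. An Arabidopsis-matched P450 (A_71_P123309) rose from 83.6 and 114 to 656 and 436.

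Several enzymes of lipid, sugar and redox metabolism were also higher. The oleate desaturase FAD2 (A_71_P118977, tung tree), which makes linoleic acid, rose by 2.54 and 2.62 (5.97-fold, adjusted p = 0.0485), and a cotton omega-6 desaturase probe (A_71_P118975), with its water signal above background on 1 array only, by 2.00 and 2.29. In the lipid group as a whole, 5 of 191 probes rose and 5 fell (2.62% each way, against 1.81% and 1.72% of all probes). Of 93 starch, sucrose and trehalose probes, 5 rose (5.38%) and 0 fell, with a median of 0.05. The largest of these 5 rises were those of 2 probes described as sucrose-regulated SR1 mRNA, a description that names no enzyme. They rose at least 2.23-fold (A_71_P122570) and 3.12-fold (A_71_P118460). The sucrose-phosphate synthase probe of barley (A_71_P104356), an enzyme that commits carbon to sucrose, gave 2.08 and 1.85 (at least 1.25-fold). Of 114 probes for glutathione, glutaredoxin, thioredoxin and ascorbate enzymes, 7 rose (6.14%) and 0 fell, with a median of 0.09. The 7 included 5 glutathione transferases, which conjugate glutathione to reactive compounds, led by OsGSTU15 (A_71_P123414) at 1.93 and 1.56. The other rises in the group were those of ascorbate enzymes. Rice hemoglobin 1 (A_71_P110515), known in plants to scavenge nitric oxide, rose from 15541 and 28890 to 91074 and 86257. A wheat hemoglobin Hb2 probe (A_71_P116160) stayed at -0.02 and 0.14. The probe for the cytokinin-forming enzyme AtIPT1 (A_71_P114467) gave 1.56 and 1.92, a rise of at least 1.81-fold. These hemoglobin and isopentenyltransferase probes were picked after their values were seen.

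Peroxidases had the highest share of decreased probes among the 48 gene groups, at 17.0% against 1.72% of all probes. Of 88 peroxidase probes, without the glutathione, ascorbate and thioredoxin types, 15 decreased and 1 increased, and the median was -0.11. On both arrays 44 of them were below 0 and 17 above. These secreted enzymes cross-link cell walls and turn over hydrogen peroxide. One matched to a cotton bacterial-induced peroxidase (A_71_P116301) stood at 13.7 and 14.0 with nitrate, not well above background, and 117 and 135 with water, a fall of at least 3.45-fold (log2 ratio -3.18 ± 0.13, adjusted p = 0.0476). The rice POX8.1 (A_71_P117838) fell by 2.34 and 1.78 and maize pox1 (A_71_P103752) by 1.67 and 2.40. One rice peroxidase (A_71_P117842) went the other way, at 1.87 and 1.58. With normexp background correction, 8 peroxidase probes decreased.

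Receptor-like kinases, the cell-surface sensors of plants, also included decreases. Of 339 probes, 23 decreased (6.78%) and 3 increased (0.885%), against 1.72% and 1.81% of all probes, with a median of -0.02. The median was thus near that of all probes, and the decreases were a tail of the family. The rice drpk1 (A_71_P112010) was the lowest at -2.38 and -1.89. Wall-associated kinases, which bind pectin, had 4 decreases and 0 increases among 27 probes. Their median was -0.40, and 17 were below 0 on both arrays against 1 above. Only 13 of the 27 had a signal clear of background on each etiolated array, so the median and these counts include dim probes. No such count over all probes was set beside them, so a shift of the whole set is not shown. A rice wall-associated kinase (A_71_P127012) gave -2.05 and -1.56, and the Arabidopsis-matched WAK2 (A_71_P105917) gave -2.19 and -1.64. This list too was drawn after the values were seen, and without etiolated array 1 it held 7 decreases. With normexp, 3 receptor-like kinase and 0 wall-associated kinase probes decreased. The carrot phytosulfokine receptor probe (A_71_P111837) and the rice precursor of its peptide ligand, phytosulfokine-alpha (A_71_P116992), a growth signal, both fell. The receptor was at 12.0 and 13.1 with nitrate against 62.9 and 80.9 with water, at least 1.96-fold lower. The precursor was at 18.1 and 20.7 against 90.6 and 112, at least 2.76-fold lower.

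**Figure D3:**
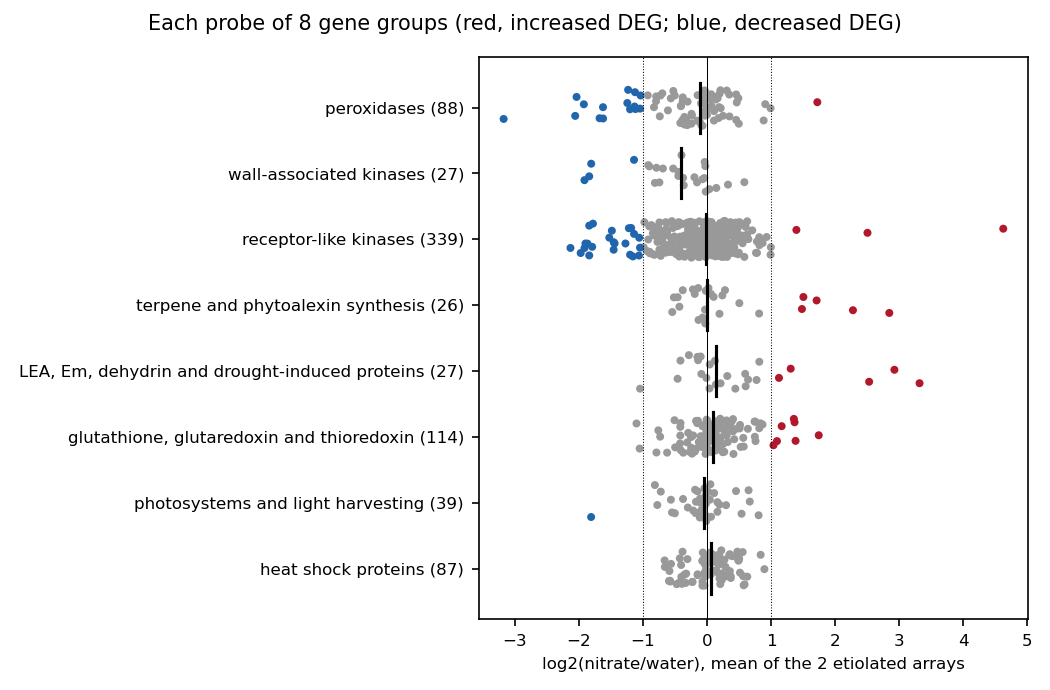
Log2(nitrate/water), mean of the 2 etiolated arrays, of each probe in 8 gene groups, with increased DEGs in red, decreased DEGs in blue, other probes in grey and a black bar at the group median. Vertical scatter within a row carries no meaning, and the wall-associated kinases have their median at -0.40.

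Defence probes were called more often lower than higher. Of 179 defence probes, 9 fell (5.03%) and 3 rose (1.68%), against 1.72% and 1.81% of all probes. The median was -0.02. The germin-like protein RGLP1 of rice (A_71_P121209) went from 804 and 540 to 99.3 and 151, and a rice chitinase (A_71_P124947) fell by 1.86 and 1.95 (adjusted p = 0.0485). Of 169 expansin and cell wall probes, 4 fell and 4 rose (2.37% each way), with a median of -0.01. The falls included an alpha-expansin of tobacco (A_71_P116457), a wall-loosening protein, at -1.44 and -1.49. The rises included 3 probes for a pea xyloglucan fucosyltransferase, the highest (A_71_P110908) at 2.18 and 2.08. For A_71_P116772, counted among these, the lower limit was 0.80-fold, so no rise is shown. Another probe of that description (A_71_P105061), added after its values were seen, gave -1.21 and -0.83. The largest named decrease, a probe matched to human ankyrin (A_71_P124532), went from 1259 and 1200 with water to 97.0 and 107 with nitrate (log2 ratio -3.59 ± 0.18, 12.0-fold, adjusted p = 0.0476). Other large decreases were those of a GDSL-type lipase (A_71_P116308) at -3.70 and -2.52, and a maize polyamine oxidase (A_71_P121860), which breaks down polyamines, at least 5.60-fold lower.

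Each family of transcription factors held few DEGs, too few to compare families by direction. MYB factors had 3 increased and 2 decreased of 57 probes (5.26% and 3.51%, against 1.81% and 1.72% of all probes). For A_71_P112562, counted among the increases, the lower limit was 0.94-fold, so no rise is shown. The largest MYB change was a fall of a rice myb factor (A_71_P121724) by 2.30 and 1.75. The homeodomain-leucine zipper factor Oshox6 (A_71_P105650) rose by 2.70 and 1.65. bHLH factors had 2 increased and 1 decreased of 23 (8.70% and 4.35%). AP2/ERF factors had 0 increased and 3 decreased (10.7%) of 28 probes, the decreases all between -1.38 and -1.05. WRKY factors had 2 increased and 1 decreased of 29 (6.90% and 3.45%). With normexp the increased and decreased counts were 0 and 2 for MYB, 1 and 0 for bHLH, 0 and 2 for AP2/ERF and 1 and 1 for WRKY. Of 87 heat shock and 123 F-box and ubiquitin probes, 0 were DEGs, and 3 of 169 ribosomal protein probes were.

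The counts of several groups shifted with the processing, as did the counts of all DEGs. Over all probes, 111 increased and 111 decreased with normexp, rather than 389 and 370. With normexp, increased probes numbered 2 for terpene synthesis rather than 5, 1 for late embryogenesis and drought-induced proteins rather than 5, 3 for the glutathione group rather than 7, 2 for cytochrome P450 rather than 7 and 1 for starch and sucrose rather than 5. Decreased probes numbered 2 for phosphate starvation rather than 4 and 5 for defence rather than 9. Without etiolated array 2, more receptor-like kinase and defence probes were called in both directions, as were more of all probes. Without etiolated array 1, starch and sucrose probes had 8 increases.

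**Figure D4:**
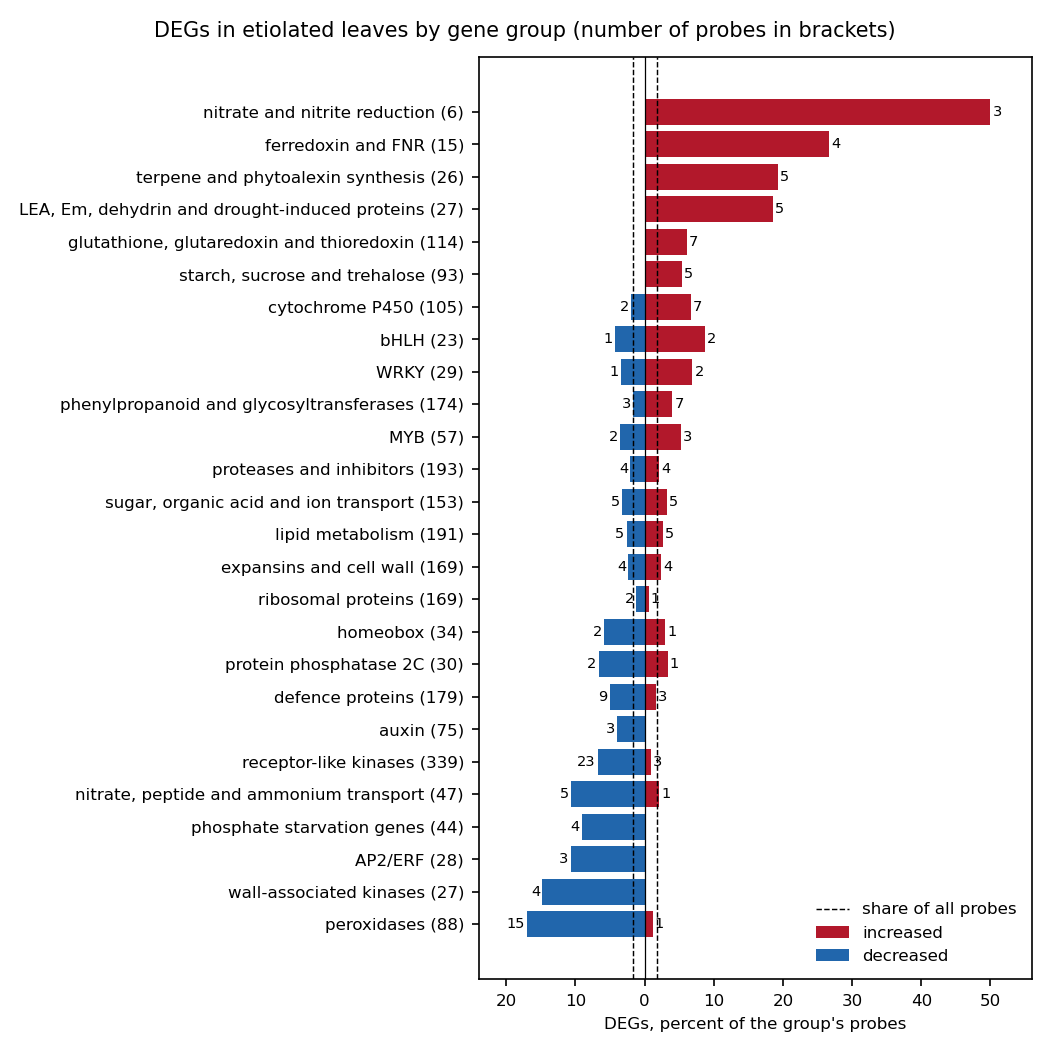
Share of each gene group's probes that were increased (red, right) or decreased (blue, left) DEGs in etiolated leaves, for groups with 3 or more DEGs. Numbers at the bars are DEG counts, and the dashed lines mark the shares of all probes, 1.81% and 1.72%.

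Set against light-grown leaves, the log2 ratios of several nitrate assimilation probes were lower in etiolated leaves. For the contrast of the log2 ratios, etiolated minus light-grown, 640 probes were higher (2.98%) and 760 lower (3.54%) at the DEG thresholds by limma. After adjustment 0 passed, the smallest adjusted p being 0.0602, and 3377 had an unadjusted p of at most 0.05. In light, 803 probes were DEGs (3.74%). The barley nitrate reductase probe rose by 6.44 and 6.32 in light against 3.29 and 3.72 in etiolated leaves (A_71_P104314, difference -2.88 ± 0.23, adjusted p = 0.0992). Ferredoxin VI (A_71_P103413) rose by 5.43 and 5.51 against 3.05 and 3.13 (difference -2.38 ± 0.18, adjusted p = 0.0992). Ferredoxin-NADP+ reductase (A_71_P107781) differed by -1.86 ± 0.25. For the chloroplast glucose-6-phosphate dehydrogenase (A_71_P119392) the difference was -0.13 ± 0.21.

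Many DEGs of etiolated leaves had light ratios near 0, as had most probes. Of the 389 increased DEGs, 173 had a light log2 ratio between -0.5 and 0.5, as had 230 of the 370 decreased DEGs, which were chosen by their etiolated values. Of all tested probes, 82.6% lay in that window. The light-repressible receptor kinase probe was at 0.04 and 0.83 in light (fitted difference 4.20, adjusted p = 0.0992, the etiolated ratio being a limit). Beta-caryophyllene synthase was at -0.05 and 0.22 (difference 2.76 ± 0.20, adjusted p = 0.0952). Of the 26 terpene probes, 6 were higher in the contrast and 1 lower. That list was drawn up after the etiolated values were seen, and the contrast uses the same values, so the count is no separate support. Of 339 receptor-like kinase probes, 32 were lower and 10 higher, against 3.54% and 2.98% of all probes. Their share of higher probes was near that of all probes.

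A few probes went opposite ways in the 2 conditions. The RCc3 probe A_71_P104181 rose by 1.51 and 0.76 in etiolated leaves and fell at least 7.49-fold in light (adjusted p of the fitted difference = 0.0843). Its nitrate signal in light was not above background. In etiolated leaves the other RCc3 probes were below the DEG threshold, at -0.70 (A_71_P123098), -0.56 (A_71_P123226, the brightest) and 0.16 (A_71_P109403). A faba bean transcription factor probe (A_71_P115641) gave 1.62 and 0.92 in etiolated leaves and fell at least 5.73-fold in light (adjusted p of the fitted difference = 0.0751). The P450 probe A_71_P123309, above background throughout, gave 2.97 and 1.94 against -2.71 and -3.63 in light (difference 5.63 ± 0.51). Counted over all probes, 181 were DEGs in both conditions and 33 of these had opposite directions.

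**Figure D5:**
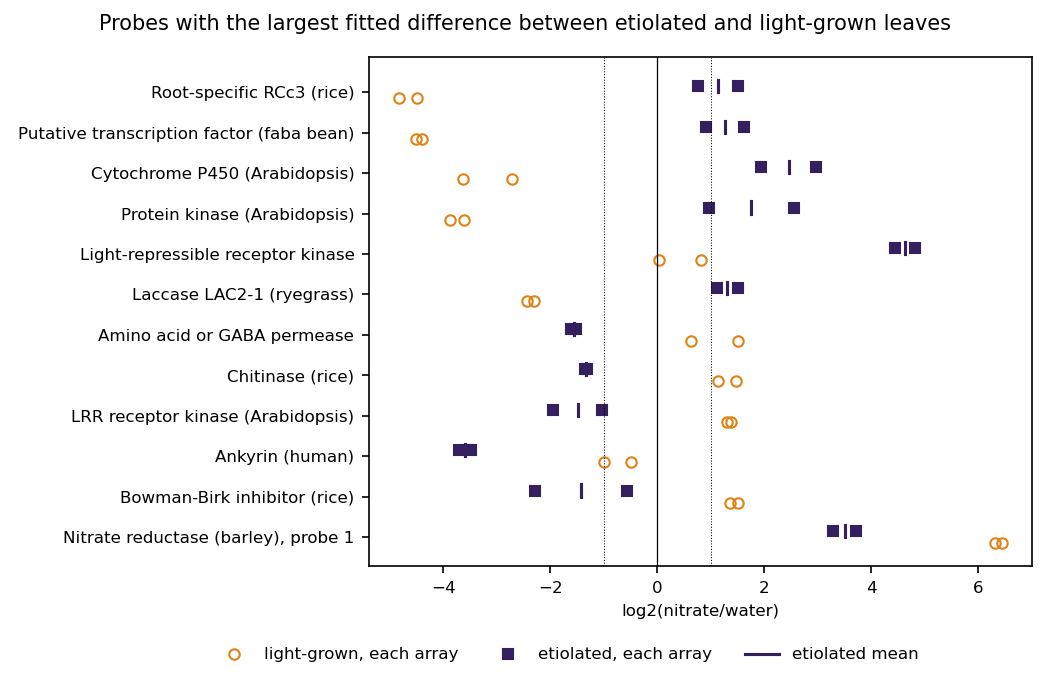
Log2(nitrate/water) on each array for the 12 named DEGs of etiolated leaves with the largest fitted difference from light-grown leaves, 6 in each direction, with etiolated arrays as filled squares, their mean as a bar and light arrays as open circles. Dotted lines mark -1 and 1, and the receptor kinase stands at 4.81 and 4.44 in etiolated leaves.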

How the data were processed

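Etiolated rice leaf RNA was hybridised on 2-colour Agilent arrays, each with 42990 non-control spots (2 per probe). The authors deposited scanner intensity values per channel, background-subtracted and dye-balanced by Feature Extraction 9.5.3.1 per the file headers, and its log10 ratio, and a table of normalized ratio values, used as an alternative. The log2(nitrate/water) of processed signals was normalized by loess within arrays (span 0.3, 4 iterations). Control spots and 7 and 20 outlier spots on the etiolated arrays were left out, spots averaged, and all 4 arrays fitted by limma 3.58.1 in R 4.3.3, with a coefficient per condition. The number of arrays, 2 per condition, limits the precision. Channel signals printed are those after loess and Aquantile between arrays. Alternatives were other background corrections, normalizations and filters, a dye block, and each array left out.

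A probe was above background if either spot was, and named probes other than the reductases were so in 1 channel or more on both etiolated arrays. Where a channel was not on either array, folds are limits against the higher of its own signal and the lowest signal among probes with both spots above background. Named were all nitrate and nitrite reductase probes, up to 3 DEGs each way per gene group, the 12 largest named changes each way (7 and 11 unnamed probes among the increases and decreases were passed over) and the 6 largest contrasts each way. Descriptions were grouped by words into 48 gene groups. The members, lists and tests were chosen with earlier results of these data known, 4 groups and 14 further probes after their values were seen, and word matches of the lists were corrected after the files were read. The test was tried on simulated data. Probe sequences, rice loci and coordinates were not used here, and 1 named probe is not reported here.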

Additional observations from a re-analysis of the deposited data

Results flagged for a closer look

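The probes given here, the 6 with the largest contrast in each direction among named DEGs of etiolated leaves, were singled out because their response differed from that in light-grown leaves by limma's contrast (unadjusted). None passed adjustment over all probes. Each value is the etiolated minus the light-grown log2 ratio. Higher in etiolated leaves were 1 of the root-specific RCc3 probes (A_71_P104181) by 5.79, the faba bean transcription factor (A_71_P115641) by 5.73 and the P450 A_71_P123309 by 5.63. So were an Arabidopsis-matched protein kinase (A_71_P115501) by 5.50, the light-repressible receptor kinase (A_71_P114063) by 4.20 and laccase LAC2-1 (A_71_P124408) by 3.68.

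The barley nitrate reductase probe (A_71_P104314) differed by -2.88, the rice Bowman-Birk inhibitor (A_71_P101369) by -2.86, the ankyrin probe (A_71_P124532) by -2.84, a leucine-rich receptor kinase (A_71_P107207) by -2.82, an amino acid or GABA permease (A_71_P112131) by -2.64 and a rice chitinase (A_71_P103408) by -2.63. Nitrate reductase rose in both conditions. These are fitted differences, and their order is not one of measured size. The ankyrin probe was not above background in light in either channel, so its light ratio, and with it the difference, is not a measurement. For RCc3, the faba bean factor and the protein kinase the nitrate signal in light, and for the protein kinase and the receptor kinase the water signal in etiolated leaves, was not above background.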

How the results depend on the processing

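The count of 759 DEGs (389 increased, 370 decreased) stayed within 1.5 times under median centring, the Feature Extraction log ratio, the deposited ratios, without dim probes, with outlier spots kept and with the condition fitted alone (615 to 817), and, chosen after seeing the data, without loess (819). Normexp background correction with an offset of 50 gave 222 DEGs (111 and 111) and 500 probes past the contrast in place of 1400. By construction the offset shrinks ratios of dim probes, and nitrite reductase (A_71_P102212) then stood at 0.92. Without moderation there were 236 DEGs (133 increased and 103 decreased), and at an adjusted p of at most 0.05 there were 48 (29 and 19) and 0 past the contrast. That adjusted count was 0 with the Feature Extraction log ratio, the dye block, the condition fitted alone or no moderation. It was 287 with median centring, 395 with the deposited ratios, 491 with normexp and 634 without dim probes. Leaving out 1 array gave 777 to 1468 DEGs, 416 to 706 increased and 361 to 762 decreased, and 1241 to 2285 past the contrast, the highest values without etiolated array 2, where the lone array is assumed to vary like the light arrays. Same-numbered arrays share a dye orientation, not plants, and their deviations correlated at 0.12. With dye orientation as a replicate block, 763 DEGs and 1452 probes past the contrast were found. Of 146 named probes, 0 changed direction with a call under any setting run, 70 lost their call with normexp, 90 without moderation, 26 without etiolated array 1 and 14 without array 2. Of 96 group counts, 42 moved by over 1.5 times with normexp, and 36 and 47 without etiolated array 1 and 2. The cause of these shifts was not tested.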
